A study of Sicyos edulis with 9 samples.

Results

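The flavonol synthase genes SeFLS1 and SeFLS3 of chayote (Sicyos edulis, a cucurbit vegetable) changed places as the more abundant transcript between 15 and 30 days of fruit storage. They are the unigenes TRINITY_DN13123_c0_g1 (SeFLS1) and TRINITY_DN5406_c0_g1 (SeFLS3), 2 of the 57814 unigenes with a value in every library. Both were chosen by their FPKM in these 9 libraries, which run in opposite directions over storage, so those levels are given as a description and were not tested. RNA of wild-type fruits was sequenced in 3 biological replicates each of S1 (the optimal stage of harvest), S2 (stored for 15 days) and S3 (stored for 30 days). All fruits came from 1 experimental field, and those stored were kept in plastic containers. No unstored fruits of the later ages were sampled, so storage and fruit age cannot be told apart. Levels are FPKM (fragments per kilobase of transcript, scaled to the mapped fragments of the library), which are per length and can be set side by side between genes. RNA was taken from fruits with no single tissue or cell type stated, so fewer cells of a type and less RNA per cell cannot be told apart. The unigenes carry no annotation in the files, so the tissue could not be checked against marker genes.

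Flavonol synthase (FLS) is a 2-oxoglutarate-dependent dioxygenase that turns dihydroflavonols into flavonols such as kaempferol and quercetin. Its substrate is made by flavanone 3-hydroxylase (F3H), and dihydroflavonol 4-reductase (DFR) draws on the same substrate for the anthocyanin branch. UDP-glycosyltransferases (UGT) then attach sugars to the flavonols, which plants keep mostly as glycosides. Plants often hold several FLS copies that differ in where and when they are transcribed.

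The SeFLS1 transcript was also assayed by qRT-PCR in the study, and its primers are the only sequence at hand for either gene. They are shown as the pair the study lists for SeFLS1, tied to the unigene by gene name and locus only. Whether they match the unigene or other copies was not tested. The pair carries the gene locus FSG0080030, and each primer has 20 bases, written 5′ to 3′.
SeFLS1 forward: gatttcaggaacccagatca
SeFLS1 reverse: gagctcgaagaactccttac

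Among the 3 flavonol synthase unigenes of the study's lists, SeFLS1 was the most abundant at harvest, and it fell in both periods of storage. Those lists hold genes that differed between stages, so flavonol synthase unigenes outside them could not be found here. Its levels were 315, 413 and 324 FPKM in the S1 libraries, 169, 189 and 183 FPKM in S2, and 20.9, 17.7 and 16.0 FPKM in S3. The stages did not overlap in any library, and the S2 libraries lay closest together relative to their level. S1 averaged 351 ± 54.5 FPKM, S2 averaged 180 ± 10.2 FPKM and S3 averaged 18.2 ± 2.48 FPKM (SD, n = 3). The level in S2 was 1.95-fold below that in S1, the level in S3 was 9.91-fold below that in S2, and over the whole period the fall was 19.3-fold.

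SeFLS3 was barely detected until the last sampling. Its levels were 0.53, 0.23 and 0.20 FPKM in S1, 0.04, 0.12 and 0.91 FPKM in S2, and 90.1, 42.6 and 45.6 FPKM in S3. The S1 and S2 libraries overlapped and all 6 stayed under 1 FPKM, whereas every S3 library was far above all of them. The means were 0.320 ± 0.182 FPKM at S1, 0.357 ± 0.481 FPKM at S2 and 59.4 ± 26.6 FPKM at S3 (SD, n = 3). SeFLS3 averaged 167-fold more in S3 than in S2 and 186-fold more than in S1, folds whose denominators rest on values between 0.04 and 0.91 FPKM. The files hold no read counts, and counting error could not be attached to such low values.

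**Figure D1:**
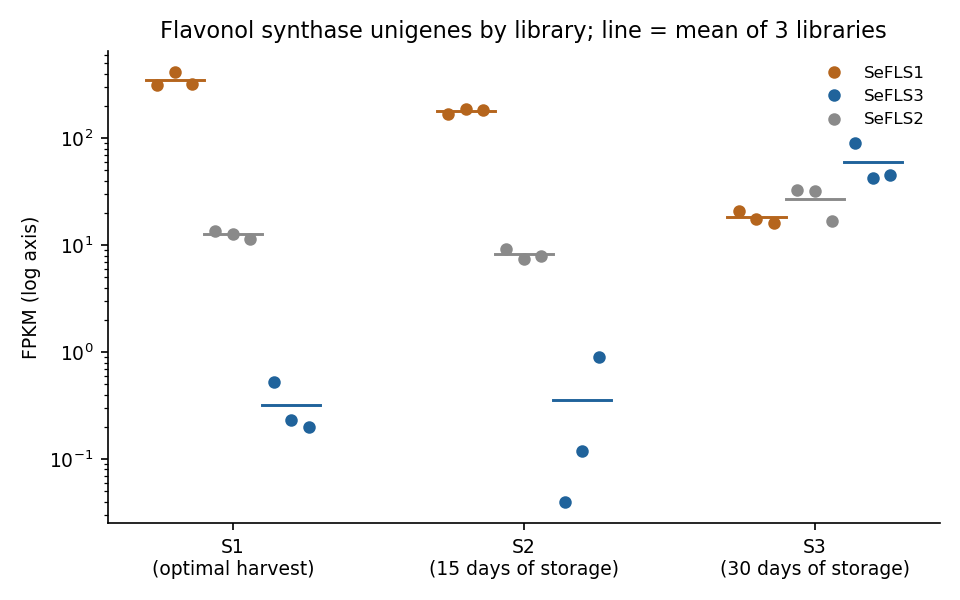
FPKM of SeFLS1, SeFLS3 and SeFLS2 in each of the 9 libraries on a log axis, by stage, with 1 point per library and a line at the mean of the 3 libraries of a stage. SeFLS1 steps down at S2 and again at S3, where its 3 libraries lie between 16.0 and 20.9 FPKM, and SeFLS3 stays under 1 FPKM until S3, where it lies between 42.6 and 90.1 FPKM.

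The ratio of SeFLS1 to SeFLS3 turned over between S2 and S3 and not before. SeFLS1 exceeded SeFLS3 594-fold, 1797-fold and 1618-fold in the S1 libraries and 4222-fold, 1572-fold and 201-fold in the S2 libraries. The rounding of the files to 2 decimals alone lets the highest of these lie anywhere between 3753 and 4826. In S3 the ratio of SeFLS1 to SeFLS3 was 0.232, 0.416 and 0.350, so that SeFLS3 was 4.32-fold, 2.41-fold and 2.86-fold above SeFLS1 in the same libraries. All 6 libraries of S1 and S2 thus had more SeFLS1 and all 3 of S3 had more SeFLS3. The log2 ratio, with 0.01 FPKM added to both genes, averaged 10.18 ± 0.86 at S1, 9.95 ± 2.10 at S2 and -1.63 ± 0.43 at S3 (SD, n = 3). The wide spread in S2 follows the SeFLS3 values, which span 0.04 to 0.91 FPKM there.

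The rise of SeFLS3 did not make up for the fall of SeFLS1. The sum of both genes was 316, 414 and 324 FPKM in S1, 169, 189 and 184 FPKM in S2, and 111, 60.3 and 61.6 FPKM in S3. Every S2 library lay below every S1 library and every S3 library lay below both. The sum averaged 351 ± 54.4 FPKM at S1, 180 ± 10.3 FPKM at S2 and 77.6 ± 28.9 FPKM at S3 (SD, n = 3), so that S2 held 51.4% of the S1 sum and S3 held 22.1% of it, or 43.0% of the S2 sum. SeFLS3 made up at most 0.495% of the sum in any S1 or S2 library, against 81.2%, 70.6% and 74.1% in the S3 libraries. Between S2 and S3 the mean of SeFLS3 gained 59.1 FPKM, which is 36.5% of what the mean of SeFLS1 lost.

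**Figure D2:**
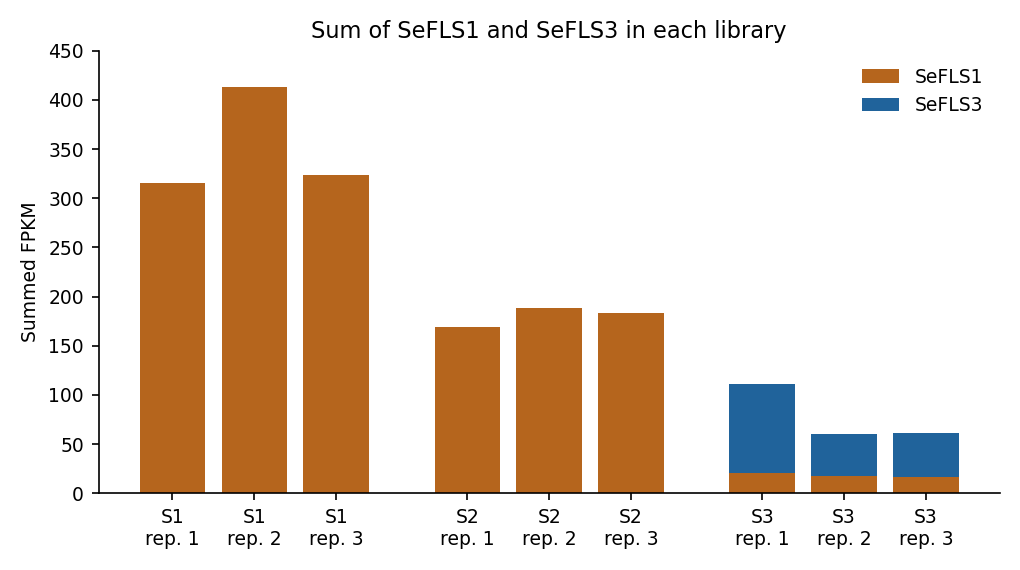
Summed FPKM of SeFLS1 and SeFLS3 in each library, stacked, on a linear axis from 0. The S1 and S2 bars consist almost wholly of SeFLS1, and the S3 bars, at 111, 60.3 and 61.6 FPKM, are shorter and mostly SeFLS3.

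The timing of SeFLS1 depended on the scale. In FPKM its mean fell by 171 in the first 15 days, 51.3% of the whole fall, and fell by 162 in the second, 48.7% of it. On the log2(FPKM + 1) scale the step was -0.95 ± 0.23 in the first 15 days and -3.25 ± 0.20 in the second (SD of the difference), so that 77.4% of the total of -4.19 ± 0.28 came in the second. The rise of SeFLS3 lay in the second 15 days on either scale. On the log2 scale SeFLS3 differed by -0.01 ± 0.52 in the first step and by 5.45 ± 0.76 in the second, and 99.94% of its gain in FPKM came in the second. With 1 sampling between harvest and 30 days, the day on which the 2 genes crossed is known only to lie after day 15 and by day 30.

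Set against all unigenes, the genes moved past each other in rank. SeFLS1 ranked 327th, 226th and 342nd by FPKM in the S1 libraries, 699th, 591st and 616th in S2, and 7428th, 8605th and 9231st in S3, with rank 1 the highest. Among unigenes above 0 it thus stood in the top 0.508% to 0.806% at S1, the top 1.37% to 1.56% at S2 and the top 18.5% to 22.9% at S3. SeFLS3 ranked 32727th, 41287th and 40258th in S1, 44754th, 42330th and 27500th in S2, and 1538th, 3896th and 3651st in S3. It never came near the place that SeFLS1 held at harvest, since its best rank of 1538 is lower than the poorest rank of SeFLS1 in S2.

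**Figure D3:**
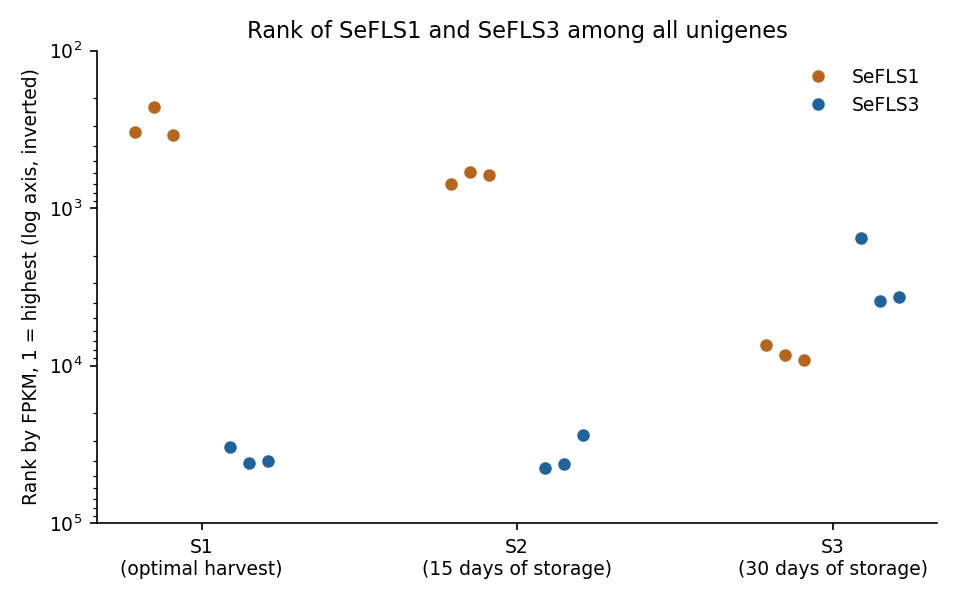
Rank of SeFLS1 and SeFLS3 by FPKM among all 57814 unigenes in each library, with rank 1 at the top of an inverted log axis. SeFLS1 lies between 226 and 699 in S1 and S2 and between 7428 and 9231 in S3, and SeFLS3 lies beyond 27500 in S1 and S2 and between 1538 and 3896 in S3.

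The size of the changes was then ranked among the 30201 unigenes with at least 1 FPKM in at least 3 libraries, a filter that SeFLS3 passed only through its S3 libraries. The fall of SeFLS1 was the 2702nd largest in S2 against S1, the 628th largest in S3 against S2 and the 314th largest in S3 against S1. The rise of SeFLS3 was the 77th largest in S3 against S2 and the 33rd largest in S3 against S1. Separate libraries were common in these comparisons: 30.0% of all tested unigenes were lower, and 29.5% higher, in every S3 library than in every S2 library. In S2 against S1, 21.5% were lower without overlap, and in S3 against S1 28.1% were lower and 24.8% higher. The median log2 difference over all tested unigenes was -0.03, 0.00 and -0.05 in S2 against S1, S3 against S2 and S3 against S1.

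**Figure D4:**
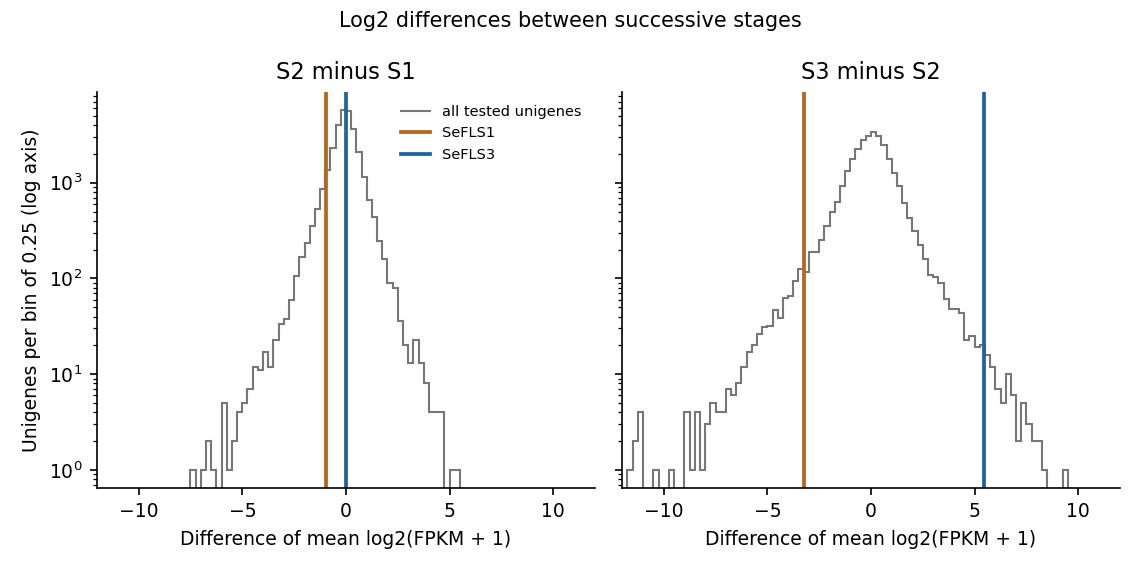
Number of unigenes per bin of 0.25 in the difference of mean log2(FPKM + 1), S2 minus S1 on the left and S3 minus S2 on the right, over 30201 tested unigenes on a log axis, with SeFLS1 and SeFLS3 as vertical lines. SeFLS1 lies at -0.95 and -3.25, and SeFLS3 at -0.01 and 5.45, in the upper tail of the second step; both steps use the S2 libraries.

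Few other unigenes had either pattern at so high a level. Besides SeFLS1, 51 tested unigenes fell by at least as much in both steps, and 6 of them had an S1 mean at least as high. Of the 16413 unigenes under 1 FPKM in all 6 libraries of S1 and S2, 70 averaged at least 10 FPKM in S3, SeFLS3 among them. Only 1 other of these had an S3 mean at least as high as that of SeFLS3, a count that depends on the bound of 1 FPKM. TRINITY_DN2723_c0_g1 averaged 72.8 FPKM in S3 and was left out for a value of 1.32 FPKM in S1 replicate 2.

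The replicates of SeFLS1 agreed about as well as those of other unigenes of its level, and those of SeFLS3 in S3 did not. The SD of log2(FPKM + 1) for SeFLS1 was 0.22, 0.08 and 0.18 in S1, S2 and S3, beside medians of 0.31, 0.08 and 0.19 over the unigenes within 2-fold of its mean in each stage. For SeFLS3 in S3 it was 0.59 beside a median of 0.18, and 94.6% of the 4468 unigenes within 2-fold of its mean had a smaller SD. S3 replicate 1 was the highest S3 library for both genes, and for SeFLS3 it stood 2.11-fold above the lowest. Without it the S3 sum averaged 61.0 FPKM in place of 77.6. Over all unigenes the S3 libraries added up to 801066 to 832808 FPKM, against 868507 to 914583 in S1 and S2. With the libraries rescaled by median-of-ratios, SeFLS1 differed by -4.192 and SeFLS3 by 5.412 in S3 against S1 on the log2 scale. Without rescaling these were -4.193 and 5.441. The rescaled S3 sum averaged 75.6 FPKM. The part of the totals in the values of the genes was not tested otherwise. A rough estimate of depth from the steps between low values gave 0.726 to 1.28 times that of S1 replicate 2 over the 9 libraries. It was not set against the mapped reads that the study lists. Replicates correlated with Pearson's r of 0.905 to 0.958 across unigenes, which are not independent replicates.

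The third flavonol synthase unigene of the study's lists, SeFLS2 (TRINITY_DN28979_c0_g1), was a minor transcript of the 3 at first and took a larger share at the end. Its levels were 13.7, 12.7 and 11.5 FPKM in S1, 9.23, 7.44 and 7.90 FPKM in S2, and 32.73, 31.95 and 16.95 FPKM in S3. All S3 libraries lay above all those of S1 and S2, and the 2 highest were S3 replicates 1 and 2. The study listed SeFLS2 as differing on these same samples, so the tests that follow are not independent evidence of a change. SeFLS2 was higher in S3 than in S2 by 1.57 on the log2 scale (standard error 0.23, adjusted p = 8.45e-04, limma) and higher in S3 than in S1 by 1.00 (standard error 0.23, adjusted p = 0.00789), and its difference of -0.57 in S2 against S1 did not pass the threshold (adjusted p = 0.14, or 0.0166 without S3 replicate 3 and 0.0283 with only the 6 libraries compared). Of the sum of the 3 FLS unigenes, SeFLS2 held between 2.98% and 4.16% at S1, between 3.79% and 5.18% at S2, and between 21.6% and 34.6% at S3. With SeFLS2 included, the sum of these 3 unigenes averaged 364 ± 54.4 FPKM at S1, 189 ± 9.39 FPKM at S2 and 105 ± 34.3 FPKM at S3 (SD, n = 3), the last being 28.8% of the first.

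Of the enzymes next to FLS in the pathway, F3H fell in the second step and DFR passed the threshold in neither. SeF3H, which makes the substrate of FLS, had 73.2, 69.5 and 41.4 FPKM in S1, 49.9, 47.0 and 48.8 FPKM in S2, and 16.4, 4.50 and 9.23 FPKM in S3. Its S1 and S2 libraries overlapped and its S3 libraries lay below both. SeF3H was lower in S3 than in S2 by a log2 difference of -2.32 (standard error 0.38, adjusted p = 0.00139, limma), and S2 against S1 did not pass the threshold (-0.29, adjusted p = 0.674). SeDFR, which competes for that substrate, had 74.0, 49.7 and 70.7 FPKM in S1, 104, 18.3 and 35.8 FPKM in S2, and 26.5, 26.3 and 20.9 FPKM in S3. The S2 libraries of SeDFR spread wider than those of S1 and S3, and none of its log2 differences passed the threshold (-0.62, adjusted p = 0.475 in S2 against S1, -0.73, 0.282 in S3 against S2 and -1.35, 0.0599 in S3 against S1, limma). Without S2 replicate 1 the adjusted p (limma) was 0.0384 in S2 against S1 and 0.00492 in S3 against S1, and without S2 replicate 2 it was 0.0387 in S3 against S2 and 0.0186 in S3 against S1. The difference in S3 against S1 also passed with a filter at 5 FPKM (0.0484) and when only those 6 libraries were fitted (0.00257). The sum of SeFLS1 and SeFLS3 was 6.03 ± 1.76 times the SeF3H level at S1, 3.72 ± 0.32 times at S2 and 8.95 ± 3.86 times at S3 (SD, n = 3), with 6.67 as the lowest S3 ratio and 7.82 as the highest S1 ratio. Against SeDFR it was 5.72 ± 2.26, 5.69 ± 4.37 and 3.14 ± 0.96 times.

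The rest of the pathway was taken from the study's own lists, 27 genes beside SeFLS1 and SeFLS3, of which 26 passed the filter and Se4CL7 did not. As 18 of them were listed for falling, 8 for rising and SeFLS2 for differing on these samples, their changes are not independent evidence. The share called among all tested unigenes stands beside each count. In S2 against S1, 3 were higher and 11 lower at a limma adjusted p under 0.05, beside 7.24% and 10.7% of all tested unigenes. Without S2 replicate 2 the 14 calls became 8, and without S2 replicate 3 they became 9. Calls among all tested unigenes fell as well, from 5406 to 2633 and to 2976. In S3 against S2, 3 were higher and 7 lower, beside 23.3% and 23.2%. In S3 against S1, 8 were higher and 16 lower, beside 22.1% and 25.4%. The median log2 difference of the list was -0.92, -0.52 and -1.70 in S2 against S1, S3 against S2 and S3 against S1.

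By role, the genes of the general phenylpropanoid entry (PAL, C4H and 4CL, which turn phenylalanine into coumaroyl-CoA) had 5 of 10 tested lower in S2 against S1 (limma, beside 10.7% of all tested unigenes), with 0 higher, also at an unadjusted p under 0.05. In S3 against S2, 1 was higher and 1 lower, beside 23.3% and 23.2%, and in S3 against S1, 2 were higher and 7 lower, beside 22.1% and 25.4%. SeCHS1, a chalcone synthase that opens the flavonoid branch, had 168, 128 and 90.1 FPKM in S1, 22.5, 36.1 and 43.8 FPKM in S2, and 76.8, 8.45 and 2.05 FPKM in S3. S3 replicate 1, the highest S3 library of both FLS genes, was also the highest for SeCHS1. SeCHS1 was lower in S3 than in S1 (log2 difference -3.26, standard error 0.98, adjusted p = 0.0237, limma), a call that was lost when S1 replicate 1, S1 replicate 2, S3 replicate 2 or S3 replicate 3 was left out (adjusted p = 0.0597, 0.058, 0.0702 and 0.0536), and neither single step passed (adjusted p = 0.239 in S2 against S1 and 0.286 in S3 against S2, or 0.025 and 0.00449 without S3 replicate 1). With only the 6 libraries compared, SeCHS1 passed in S2 against S1 (adjusted p = 0.0113) and missed in S3 against S1 (0.0513). SeFNSI1, a flavone synthase I, averaged 6.47 ± 2.49 FPKM in S1 and 2.31 ± 1.08 FPKM in S2 and was listed at 0, 0 and 0.03 FPKM in S3. It was called lower in S2 than in S1 (log2 difference -1.17, adjusted p = 0.0268), in S3 than in S2 (-1.67, 0.00191) and in S3 than in S1 (-2.84, 1.23e-04, limma). The first of these calls was lost without S1 replicate 2, S2 replicate 1 or S2 replicate 2 (adjusted p = 0.0808, 0.101 and 0.0995) and with a pseudocount of 0.1 (0.0516). Of 9 UGT genes, 3 were higher and 3 lower in S2 against S1 (beside 7.24% and 10.7% of all tested unigenes), 1 was higher and 3 lower in S3 against S2 (beside 23.3% and 23.2%), and 5 were higher and 4 lower in S3 against S1 (beside 22.1% and 25.4%). SeMYB1, a transcription factor of the MYB family, had log2 differences of -0.22 (adjusted p = 0.607) in S2 against S1, -0.43 (0.182) in S3 against S2 and -0.64 (0.0559) in S3 against S1 (limma), of which the last passed without S2 replicate 2 (0.0292) or S3 replicate 1 (0.0166), with median-of-ratios scaling (0.0499), with a filter at 5 FPKM (0.0452) and with only the 6 libraries compared (0.0472).

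Likeness of pattern was measured as the root mean square difference of log2(FPKM + 1), each gene centred on its own mean over the 9 libraries, among 14713 unigenes with a stage mean of at least 10 FPKM. Closest to SeFLS1 were TRINITY_DN15340_c0_g1 (0.185) and TRINITY_DN358_c0_g2 (0.196), both far less abundant, with S1 means of 22.3 and 19.8 FPKM. Of the 227 named entries searched, the nearest to SeFLS1 were the bHLH gene FSG0242730 (0.433), the MYB gene FSG0145900 (0.485) and the MYB gene FSG0221650 (0.530). Closest to SeFLS3 were TRINITY_DN2723_c0_g1 (0.293) and TRINITY_DN6748_c1_g1 (0.303). TRINITY_DN2723_c0_g1 had 95.2, 65.9 and 57.3 FPKM in S3 and at most 1.32 FPKM before, so its highest S3 library was replicate 1, as for SeFLS3. The nearest named entries to SeFLS3 were much farther off, the MYB gene FSG0135260 (0.890), the WRKY gene FSG0220320 (0.936) and the MYB gene FSG0250900 (0.951). Within 0.5 there were 145 unigenes for SeFLS1 and 12 for SeFLS3. The assembly grouped no other unigene with SeFLS1 and 1 with SeFLS3, TRINITY_DN5406_c0_g2, which stayed between 0.59 and 1.25 FPKM in all 9 libraries. Whether reads were shared between similar copies could not be checked, as the sequences of the unigenes were not used here.

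The exchange rests on the stages of the sample labels, and the study's supplementary list of structural genes puts the SeFLS1 values under other stages. All 9 of its values for SeFLS1 equal those of the files to 2 decimals, but the files' S1 values stand under S3, the S2 values under S1 and the S3 values under S2. The 9 values of SeFLS3 stand under the same stages in both. Of 95 entries in that list, 91 matched a single unigene, 72 under the same stages and 19 under others, in 4 different orders. Of the 27 pathway genes, 15 stood under other stages, SeF3H, SeDFR and SeCHS1 among them, 11 under the same, and 1 was not matched. The study's second list, which gives stage means, has SeFLS1 in the order of the files. Under the stages of the list of structural genes, SeFLS1 would average 180 ± 10.2 FPKM at S1, 18.2 ± 2.48 FPKM at S2 and 351 ± 54.5 FPKM at S3 (SD, n = 3). SeFLS1 would then be higher in S3 than in S2 by 4.19 on the log2 scale, the sum would be 180 ± 9.99, 18.5 ± 2.11 and 410 ± 43.6 FPKM, and SeFLS3 would hold 9.34% to 22.2% of it in S3, so that SeFLS1 would lead in every library. The rise of SeFLS3 in S3 is the same under both orders. The pathway genes would then be 12 higher and 3 lower in S2 against S1 and 5 higher and 11 lower in S3 against S2 (limma). In S3 against S1, 11 would be higher and 6 lower. Among all tested unigenes, 5407, 14060 and 14336 were called in these comparisons. This alternative was chosen after seeing the data. It moves stages gene by gene and leaves all other unigenes in place, so a library would mix values of different stages. Its counts, sums and shares therefore describe no set of sequenced libraries. The 19 moved entries share no single change of stages, and 72 entries kept the stages of the files. No relabelling of whole libraries therefore gives that list. Which order is right for SeFLS1 was not tested with the deposited files.

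**Figure D5:**
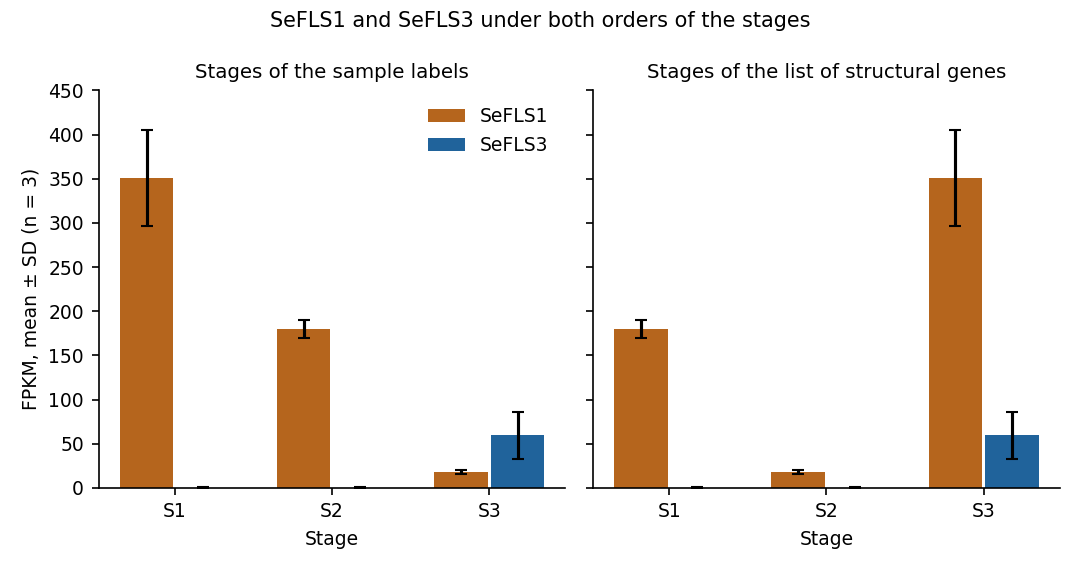
Mean FPKM of SeFLS1 and SeFLS3 by stage with SD as error bars (n = 3), under the stages of the sample labels on the left and under those of the list of structural genes on the right. The SeFLS3 bars are the same in both panels, and the tallest SeFLS1 bar, 351 FPKM, stands at S1 on the left and at S3 on the right.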

How the data were processed

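The authors deposited 1 table of FPKM with 2 decimals per library, for 9 libraries. The submitters' processing notes name fastp without a version. Mapper and counting tool: not given in the sources used here. Read depth behind single FPKM is unknown, as counts were not used here. In the table of S1 replicate 1, 8 unnamed columns hold values in a single row and were not used.

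SeFLS1 and SeFLS3, the gene lists and the named genes were chosen with earlier results of these data known. Named genes are SeFLS1, SeFLS3, SeFLS2, SeF3H, SeDFR, SeCHS1, SeFNSI1 and SeMYB1, unigenes of the same assembly component, and per gene the 3 named entries and at most 2 unigenes of most like pattern. Names come from the study's supplementary lists, matched by identifier or through all 9 values.

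All 9 libraries were fitted together with limma 3.58.1 (trend) in R 4.3.3 on log2(FPKM + 1) over unigenes with at least 1 FPKM in at least 3 libraries, and p values were adjusted by Benjamini-Hochberg over all of them, with a threshold of 0.05; the test was tried on simulated data. A difference on this scale understates changes of low genes. The p values set a difference against the spread between libraries within stages, pooled over all stages. Scatter in S3 thus also enters the p values of S2 against S1. Member values were computed with Python 3.11.15, numpy 2.4.6 and pandas 2.3.3, and plots drawn with matplotlib 3.10.9. Alternatives were median-of-ratios scaling, quantile normalization, a pseudocount of 0.1, no filter, a filter at 5 FPKM, the replicate number as a block, the 6 libraries compared, an absolute log2 difference of at least 1, each library left out, other offsets of the ratio, and the stages of the list of structural genes, the last added for the pathway genes after seeing the data.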

Additional observations from a re-analysis of the deposited data

How the results depend on the processing

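For SeFLS1 and SeFLS3, 80 of 93 recomputed values of 12 results moved by less than 1 SD. Many of these left out 1 library, which with n = 3 cannot move a mean by 1 SD. The count is therefore no measure of stability. Under the stages of the list of structural genes the SeFLS1 log2 differences became -3.25 in S2 against S1, 4.19 in S3 against S2 and 0.95 in S3 against S1, the sums 180.45, 18.54 and 410.12 FPKM in S1, S2 and S3, and the log2 ratios 9.22, 6.64 and 2.64. There, too, SeF3H (0.29) and SeDFR (1.35) changed sign in S2 against S1, and SeCHS1 in S3 against S2 (3.26). SeDFR (0.73) and SeCHS1 (1.89) changed sign in S3 against S1. The pathway calls in S3 against S2 became 16 (5 higher, 11 lower), beside 14060 calls among all tested unigenes. As the stages were moved gene by gene, the sums, ratios and calls mix stages within a library and describe no set of sequenced libraries.

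With a pseudocount of 0.1, SeFLS3 differed by 7.48 in S3 against S2 and by 7.14 in S3 against S1. With an offset of 1 FPKM the log2 ratio of SeFLS1 to SeFLS3 was 8.06 in S1 and 7.11 in S2. With each library left out in turn, SeFLS1 differed by -1.02 to -0.82 in S2 against S1, -3.34 to -3.16 in S3 against S2 and -4.29 to -4.07 in S3 against S1, and SeFLS3 by -0.28 to 0.16, 5.11 to 5.72 and 5.10 to 5.63. The sums then ranged over 320 to 369, 176 to 186 and 61.0 to 86.3 FPKM in S1, S2 and S3, and the log2 ratios over 9.89 to 10.67, 9.07 to 11.11 and -1.81 to -1.39.

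Pathway calls ranged over 8 to 18 in S2 against S1, 8 to 12 in S3 against S2 and 23 to 25 in S3 against S1 with 1 library left out. Calls among all tested unigenes then ranged over 2633 to 5781, 10838 to 15623 and 11391 to 15161. An absolute log2 difference of at least 1 left 6 of 10 pathway calls in S3 against S2, and 8332 of 14053 among all tested unigenes. With the replicate number as a block the pathway calls were 10, 11 and 25, beside 4033, 13024 and 13384 among all tested unigenes. SeFNSI1 was then no longer called in S2 against S1 (adjusted p = 0.0555, limma), and SeDFR was called in S3 against S1 (0.0439). The numbers are not stated to pair fruits: deviations of same-numbered libraries correlated at -0.227 to 0.128 in 9 pairs, 1 of them over 0.1. Over the alternatives that keep the stages of the labels, the adjusted p (limma) of SeFNSI1 in S2 against S1 ranged over 0.0224 to 0.101. In S3 against S1 that of SeCHS1 ranged over 4.19e-04 to 0.0702 and that of SeDFR over 0.00257 to 0.136. Under the stages of the list of structural genes the last 2 differences changed sign, with adjusted p (limma) of 0.146 and 0.28. The values of SeFLS3 before S3 are limited by the spread between libraries, the rounding to 2 decimals and the lack of read counts.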
